A study of Saccharomyces cerevisiae with 6 samples.

Results

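The data describe 8 budding yeast genes for enzymes and relatives that set or remove methyl groups on histone H3. They are the genes of the JmjC protein family (RPH1, GIS1, JHD1, JHD2 and ECM5) and of the methyltransferases for histone H3 lysines 4, 36 and 79 (SET1, SET2 and DOT1). The genes were chosen by name. Each was read by 1 probe set, and all 8 were among the 5402 genes tested of 5449 genes on the array. Their transcripts were measured in wild-type cells and in cells deleted for RPH1, to ask whether the other enzymes of the same marks changed when 1 of them was missing.

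Both strains are Saccharomyces cerevisiae of the W303 background, a common laboratory strain. Cells were in log phase in YPD, a rich medium, at 30 °C, with no other treatment. There were 3 arrays of wild type and 3 of the rph1 deletion, numbered 1 to 3 in each group, from samples that the design text calls biological. The labels do not say how much of RPH1 was removed, with what marker, or whether more than 1 deletion clone was used. If arrays of a group share a culture or clone, p-values measure only the spread between these arrays.

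In yeast, methyl groups on histone H3 mark transcribed genes. Set1, the catalytic subunit of the COMPASS complex, methylates lysine 4 near promoters, Set2 travels with elongating RNA polymerase II and methylates lysine 36 over gene bodies, and Dot1 methylates lysine 79 in the core of the nucleosome. JmjC proteins are iron- and oxoglutarate-dependent oxygenases, and several of them remove these methyl groups. Jhd2 acts on lysine 4, and Jhd1 and Rph1 act on lysine 36. Rph1 and its paralog Gis1 also carry zinc fingers and bind DNA as transcription factors at stress-responsive and post-diauxic-shift elements. Ecm5 has a JmjC domain that lacks residues needed for catalysis and works in a complex with Snt2 and the deacetylase Rpd3.

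Values are MAS5 signals, the Affymetrix summary of a probe set on a linear scale in arbitrary units, and compare 1 gene across arrays, not 1 gene with another. Background was taken from the 1746 fission yeast probe sets on the same array, whose 95th percentile lay between 8.59 and 12.7 on the 6 arrays. Across the tested genes the median signal was 598.8 to 628.1 per array, and arrays correlated at 0.9717 to 0.9957 with each other. The replicate 1 arrays of both genotypes stood apart from the other 4 and carry another form of sample code, so this split was treated as a batch that holds both genotypes. The same platform carries probe sets for fission yeast relatives of these enzymes. Those for the methyltransferase genes set1 and set2 and the JmjC gene epe1 read between 0.221 and 6.25 over all 6 arrays, below background on each. The 7 budding yeast genes other than RPH1 read above background on every array, with a lowest signal of 98.9.

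RPH1, encoding the lysine 36 demethylase and repressor that was deleted, had signals of 305, 362 and 385 in wild type 1, 2 and 3. In deletion 1, 2 and 3 it had 4.52, 8.18 and 8.99. The groups were far apart, and 1 of the 3 deletion arrays read above its background, at 8.99 against 8.98. The transcript was therefore at least 35.2-fold lower in the deletion, a bound set by background, and the 3 low values have no order among them. From the fit across all genes the log2 difference was -5.66 (SE 0.27, 95% interval -6.30 to -5.01, limma adjusted p = 0.00196), the smallest p of all tested genes. That fitted size and interval rest on deletion signals at or below background, and the measured size is the bound. RPH1 thus matched the labelled genotype on all 6 arrays.

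**Figure D1:**
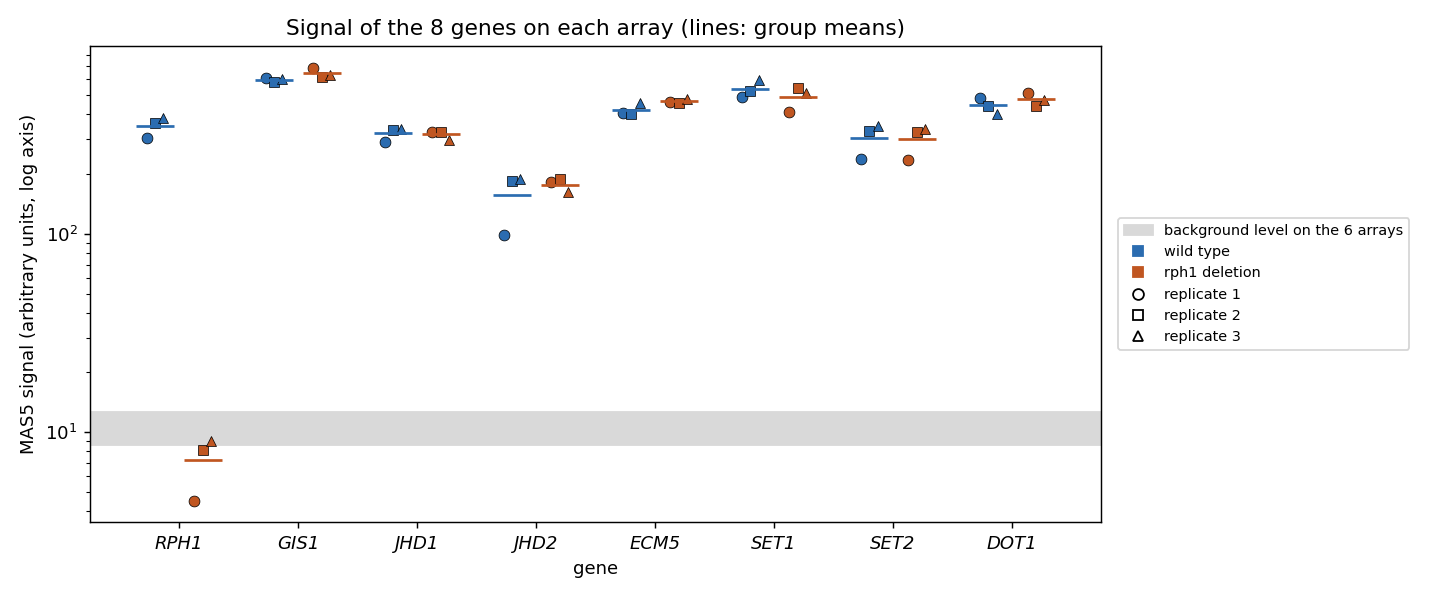
Each point is the MAS5 signal of a gene (horizontal axis) on 1 array, on a log axis in arbitrary units, with wild type in blue, the rph1 deletion in orange, shapes for replicate numbers, lines for group means of 3 arrays and a grey band for the range of background levels. RPH1 fell from between 305 and 385 to between 4.52 and 8.99, while the 2 groups of every other gene lie close together, and wild type replicate 1 is the low point of JHD2.

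No other gene of the family passed the test. Of the 7, limma called 0 at an adjusted p of 0.05, with 0 also at an unadjusted p under 0.05. Over all tested genes limma called 2, both lower (0.0370%), and 5.33% had an unadjusted p under 0.05. The balance of directions differed in other fits, with 3 higher and 3 lower when blocked by replicate number and 29 higher and 5 lower with a batch term. The 2 were RPH1 and ECM23, a GATA-type zinc-finger gene. Group means of 4 of the 7 were higher in the deletion and of 3 lower, against 50.4% of all genes higher. The median log2 difference of the 7 was 0.10, against 0.0012 over all tested genes. Their median size without sign was 0.11, against 0.068 over all genes.

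Among the JmjC genes, GIS1, the paralog of RPH1 and an activator of genes that cells turn on after glucose is used up, had signals of 613, 580 and 605 in wild type 1, 2 and 3, against 688, 618 and 630 in deletion 1, 2 and 3. The groups did not overlap, and the lowest deletion value, 618, lay just over the highest in wild type, 613. The log2 difference was 0.11 (SE 0.08), a ratio of 1.08 with a 95% interval of 0.947 to 1.22. It did not pass (limma adjusted p = 1.00), and 33.0% of all tested genes had a larger difference in either direction. GIS1 was the steadiest of the 8 genes within groups, with an SD of 0.066 on the log2 scale, below which 12.8% of tested genes lay. A 1.5-fold rise lies outside its interval.

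ECM5, for the JmjC protein of the Snt2 complex, read 408, 400 and 455 in wild type 1, 2 and 3, and its deletion signals were 461, 456 and 479. The groups again did not overlap, though wild type 3 and deletion 2 were nearly equal, at 455 and 456. The log2 difference of 0.15 (SE 0.08, 95% interval -0.05 to 0.34) did not pass (limma adjusted p = 1.00). Its exact 2-sided permutation p was 0.1, as for GIS1, the smallest that 3 arrays against 3 allow. GIS1 and ECM5 were the 2 of 7 genes (28.6%) whose groups did not overlap, a pattern found in 10.6% of all tested genes in either direction and in 7.55% with the deletion higher. By replicate number GIS1 was higher by 0.17, 0.09 and 0.06 and ECM5 by 0.18, 0.19 and 0.07 on the log2 scale.

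JHD1, for the demethylase that shares lysine 36 with Rph1, had wild-type signals of 290, 335 and 337 and deletion signals of 328, 326 and 298. The groups overlapped fully. The log2 difference was -0.01 (SE 0.09, 95% interval -0.23 to 0.21), a ratio of 0.992. Its direction differed between replicate numbers, at 0.18, -0.04 and -0.18. Under any setting tried its log2 difference stayed between -0.11 and 0.03.

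JHD2, for the lysine 4 demethylase, was the most variable of the 7. It had signals of 98.9, 184 and 189 in wild type 1, 2 and 3, against 181, 188 and 162 in deletion 1, 2 and 3. A single array, wild type 1, was low, and the other 5 lay between 162 and 189. The log2 difference of 0.23 (SE 0.26) did not pass (limma adjusted p = 1.00), and it rested on that array. Without wild type replicate 1 it was -0.08 (SE 0.10), and within replicates 2 and 3 it was -0.10 (SE 0.09). Its spread within groups exceeded that of 92.1% of tested genes, and its 95% interval of -0.39 to 0.84 was the only one of the 7 to reach past 1.5-fold.

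The methyltransferase genes gave 2 lower and 1 higher group mean, and none passed. SET1, for the lysine 4 enzyme, had signals of 489, 524 and 597 in wild type 1, 2 and 3 and of 409, 543 and 515 in deletion 1, 2 and 3. The groups overlapped, and both replicate 1 arrays were the low ones of their group. The log2 difference was -0.14 (SE 0.14, 95% interval -0.47 to 0.19), with -0.26, 0.05 and -0.21 by replicate number. Without deletion replicate 1 it was -0.02, the nearest to 0 when arrays were left out singly. That fit held no batch term and kept replicate 1 in wild type only, and replicate 1 differed from the others by -0.28.

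SET2, for the lysine 36 methyltransferase whose mark Rph1 removes, had signals of 239, 328 and 348 in wild type 1, 2 and 3, against 236, 326 and 338 in deletion 1, 2 and 3. Same-numbered arrays nearly matched, with log2 differences of -0.02, -0.01 and -0.04. The replicate 1 arrays were low in both genotypes, by -0.50 on the log2 scale against replicates 2 and 3. The log2 difference between genotypes was -0.02. Its SE was 0.20 with genotype alone and 0.05 with the batch as a term, which narrowed the 95% interval from -0.50 to 0.45 to between -0.15 and 0.10. DOT1, for the lysine 79 enzyme, had wild-type signals of 486, 442 and 403 and deletion signals of 515, 442 and 472. Its groups overlapped, and the log2 difference was 0.10 (SE 0.10, 95% interval -0.14 to 0.35).

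**Figure D2:**
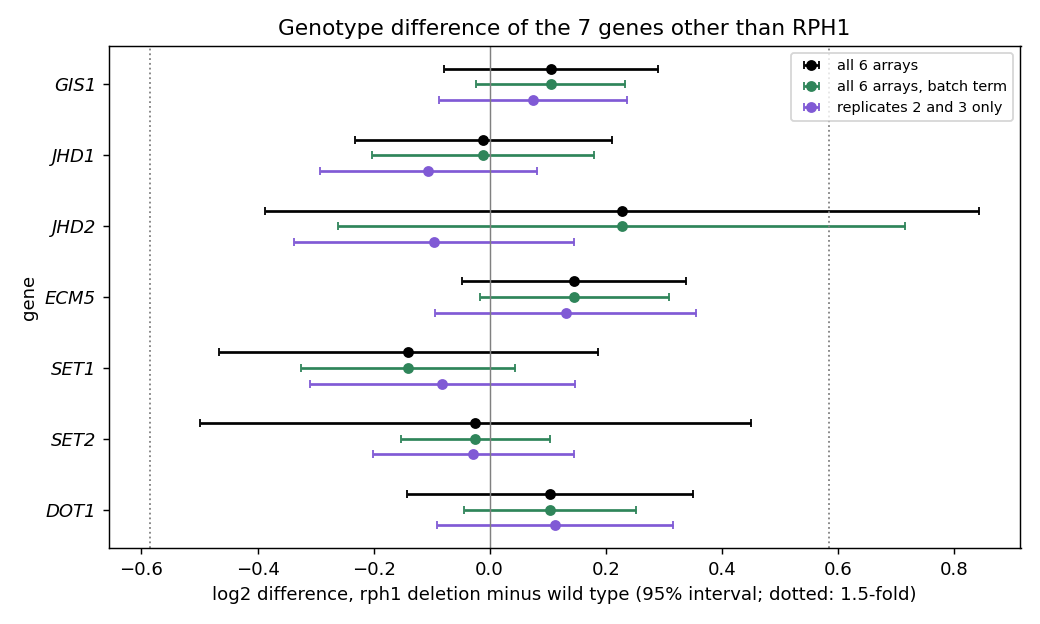
Points are log2 differences (horizontal axis, rph1 deletion minus wild type) of the 7 genes other than RPH1 with limma 95% intervals, from all 6 arrays (black), all 6 with the batch as a term (green) and replicates 2 and 3 alone (purple), with dotted lines at 1.5-fold. Every interval spans 0, and JHD2, at 0.23 in the black and green fits, has the widest interval in each fit and moves to -0.10 without the replicate 1 arrays.

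Taking up the batch did not bring any of the 7 past the threshold. A fit blocked by replicate number called 6 of all genes (0.111%) and 0 of the 7, with 13.0% of all genes and 0 of the 7 at an unadjusted p under 0.05. Limma with a batch term called 34 (0.629%) and 0 of the 7, and 14.6% of all genes and 0 of the 7 had an unadjusted p under 0.05. Within replicates 2 and 3 it called 2 (0.0370%) and 0 of the 7, and 10.6% and 0 of the 7 had an unadjusted p under 0.05. The lowest adjusted p of the 7 in the block and batch fits belonged to ECM5 (limma adjusted p = 0.400 and 0.399). In 5 of the 7 the replicate 1 arrays differed from the others by more than the genotypes differed. Among them this was -0.43 for JHD2, -0.28 for SET1 and 0.19 for DOT1, against a median size of 0.18 over all tested genes. For JHD2 it rested on wild type 1 alone, at 98.9. Deletion 1, at 181, lay within the 162 to 189 of replicates 2 and 3. For 6 of the 7, all but JHD2, the 95% interval lay within 1.5-fold of no change in either direction, with genotype alone and also with the batch as a term. In 4 of the 7 (57.1%) the direction was the same in all 3 replicate numbers, against 34.6% of all tested genes. These were GIS1, ECM5 and DOT1, higher, and SET2, lower. For DOT1 the replicate 2 difference was 0.00025, so its direction there is not meaningful. The SET2 differences were small too, at -0.02, -0.01 and -0.04, each smaller in size than its SE of 0.05 with the batch term.

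**Figure D3:**
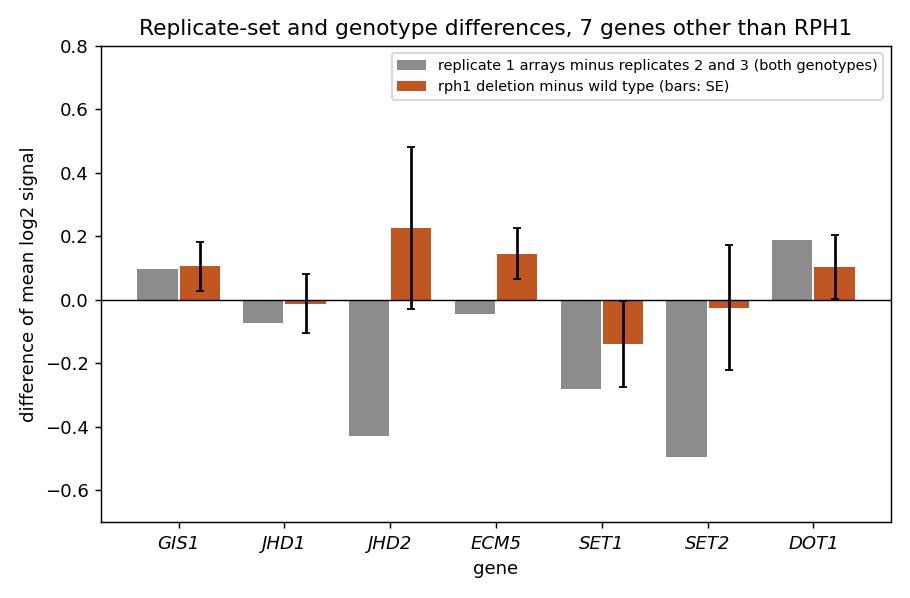
For each of the 7 genes other than RPH1 (horizontal axis) the grey bar is the mean log2 signal of the replicate 1 arrays minus that of replicates 2 and 3, over both genotypes, and the orange bar is the rph1 deletion minus wild type with its SE. SET2 shows the contrast, at -0.50 between replicate sets and -0.02 between genotypes.

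Genes that work with these enzymes were described from 10 lists, with 66 of 67 listed genes tested. Limma called 0 of the 66, and 1 had an unadjusted p under 0.05, against 5.33% of all tested genes. In all, 40 were higher in the deletion and 26 lower, against 50.4% of all tested genes higher. Their median was 0.024, against 0.0012 over all tested genes. Of the 66, 8 had groups that did not overlap, a share near the 10.6% of all tested genes.

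The 7 other COMPASS subunits, which position and activate Set1, had a median log2 difference of 0.0058, with 4 higher and 3 lower. SWD2, which links COMPASS to histone H2B ubiquitin, differed by 0.16 (SE 0.08), and SWD1 and SWD3, for WD-repeat subunits of its core, by -0.09 each (SE 0.07 and 0.10). The 5 genes of the Paf1 complex, which brings the methyltransferases to RNA polymerase II, had a median of 0.0041. CTR9 differed by 0.15 (SE 0.33), PAF1 by 0.05 (SE 0.09) and LEO1 by -0.03 (SE 0.11). CTR9 read 213 and 248 on the replicate 1 arrays and 332 to 457 on the others, so like SET2 it moved with the replicate set. The 7 genes that add or remove the H2B ubiquitin needed for lysine 4 and 79 methylation had a median of -0.0043. SUS1, a subunit of the deubiquitinase module, differed by 0.17 (SE 0.13), UBP10, a deubiquitinase gene, by 0.03 (SE 0.07) and SGF11 by -0.05 (SE 0.15).

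Of 10 genes for proteins that read lysine 36 methylation or work with such readers, 8 were higher, with a median of 0.044. ISW1, for the remodeller recruited over coding regions, had wild-type signals of 1039, 1109 and 1122 and deletion signals of 1152, 1178 and 1214. Its groups did not overlap, and it differed by 0.12 on the log2 scale (SE 0.07, limma adjusted p = 1.00). NTO1, of the NuA3 acetyltransferase, differed by 0.12 (SE 0.13), and IOC4, which tethers Isw1 to the mark, by 0.08 (SE 0.09). The 12 genes for proteins that read lysine 4 methylation or work with such readers split evenly, 6 higher and 6 lower, with a median of 0.015. BYE1, for a PHD-finger protein that binds RNA polymerase II, differed by 0.17 (SE 0.08) and SIF2, a Set3 complex gene, by 0.12 (SE 0.07), both without overlap between groups. HST1, for a deacetylase of the sirtuin family, differed by -0.21 (SE 0.16).

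The 3 SIR genes, for silencing proteins that lysine 79 methylation keeps out of active chromatin, were each higher, with a median of 0.099, and none passed. SIR2, for the silencing deacetylase, had wild-type signals of 317, 459 and 469 and deletion signals of 499, 473 and 512. Its groups did not overlap, by a narrow margin of 473 against 469. As for JHD2, wild type 1 was the low array, and the log2 difference was 0.27 (SE 0.16), or 0.08 within replicates 2 and 3. SIR3 and SIR4 differed by 0.10 (SE 0.09) and 0.07 (SE 0.08). SNT2, for the partner of Ecm5, had wild-type signals of 310, 266 and 289 and deletion signals of 263, 239 and 263, with all deletion arrays below the lowest wild-type one by a narrow margin. It differed by -0.18 on the log2 scale (SE 0.09, limma adjusted p = 1.00), while that of RPD3, for the deacetylase of the same complex, was 0.02 (SE 0.08).

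Other SET-domain and lysine methyltransferase genes had a median of 0.024 over 9 genes. SET5, for a histone H4 methyltransferase, differed by -0.06 (SE 0.12). SET4 and SET6 were dim and scattered, at 11.4 to 20.8 and 19.1 to 51.0 over the 6 arrays, and neither passed. SET4 was not above background on wild type 3, so its fitted difference of 0.34 (SE 0.21) is uncertain, and SET6 differed by -0.28 (SE 0.35). The histone genes that supply the substrate had a median of -0.046 over 3 of 4 listed, as HHF2 was not among those tested. HHT1 differed by -0.06 (SE 0.07), HHT2 by -0.05 (SE 0.08) and HHF1 by 0.0009 (SE 0.08). The HHT1 deletion arrays all lay below wild type, narrowly, at up to 4924 against at least 4933. HHT1 and HHT2 encode the same histone H3 protein, so their probe sets may share signal.

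Among 9 genes for nutrient and checkpoint kinases that act upstream of Gis1 or Rph1, the median was 0.074 with 6 higher. TPK2, for a catalytic subunit of protein kinase A, was the 1 gene of the lists with an unadjusted p under 0.05. It had signals of 874, 915 and 720 in wild type 1, 2 and 3, against 1173, 1096 and 1138 in deletion 1, 2 and 3. All deletion arrays were higher, and the log2 difference was 0.45 (SE 0.11). It did not pass over all genes (limma adjusted p = 0.434, and 0.147 with the replicate block). RAD53, for the checkpoint kinase that phosphorylates Rph1 after DNA damage, differed by 0.19 (SE 0.17), and MEC1, for the kinase above it, by 0.09 (SE 0.07).

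**Figure D4:**
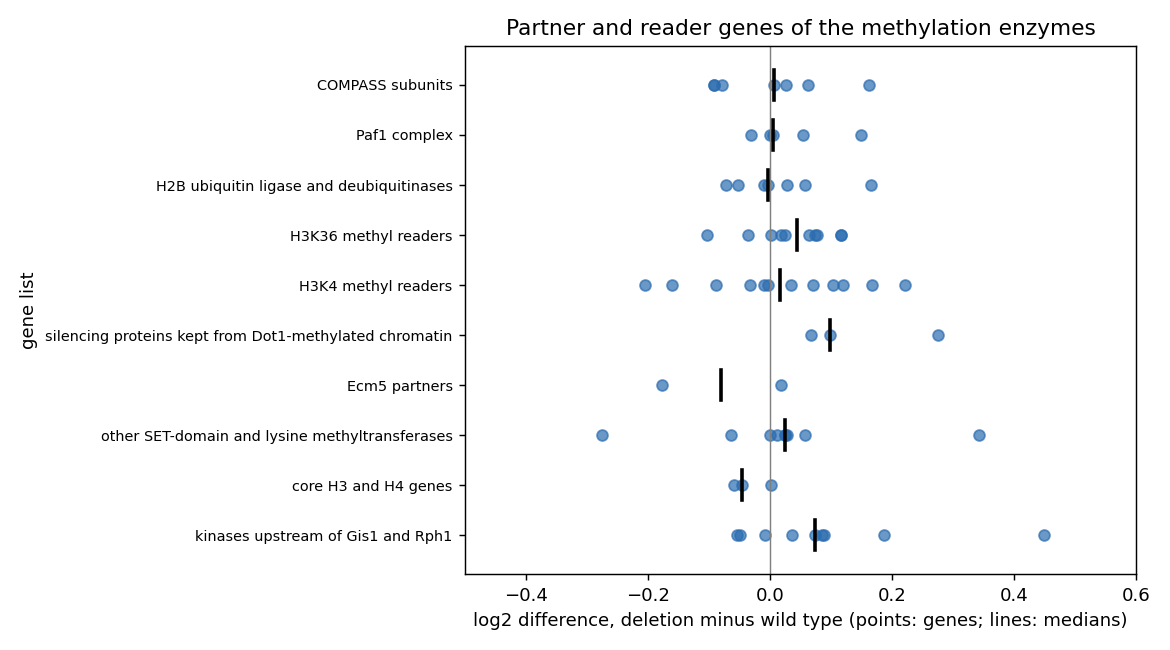
Each point is the log2 difference (horizontal axis, rph1 deletion minus wild type) of a gene in 1 of the 10 lists, and black lines are list medians. List medians lie between -0.080 and 0.099, and the point farthest to the right is TPK2 at 0.45.

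Likeness of pattern was measured as Pearson's r of log2 signal over the 6 arrays, which share their genotypes and batches, and is given as a description. The highest r with RPH1 belonged to ECM23 (r = 0.980), the alpha-cell barrier gene AFB1 (r = 0.964) and the siderophore transporter gene ENB1 (r = 0.959), all lower in the deletion. The deletion signals of RPH1, and those of ECM23 on all deletion arrays but 1, lie at or below background, so the order of nearness among these genes carries no meaning beyond the split by genotype. ECM23 was at least 2.07-fold lower in the deletion, a bound set by background (limma adjusted p = 0.00871). AFB1 and ENB1 differed by -0.15 (SE 0.06) and -0.51 (SE 0.08) on the log2 scale and did not pass. Nearest to GIS1 were SNU23, a splicing factor gene (r = 0.987), PET191, for cytochrome c oxidase assembly (r = 0.985), and the kinetochore gene IML3 (r = 0.984). Over 0.9 there were 20 genes for RPH1 and 105 for GIS1. Those nearest to GIS1 had log2 differences between genotypes of 0.09, 0.27 and 0.18 and differences between replicate 1 and the other replicates of 0.09, 0.20 and 0.21.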

How the data were processed

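The deposited values are one table of array intensity, a signal per probe set made by the authors with MAS5, per the submitters' processing notes. Its version and scaling target are not stated by the labels or the table. The 2% trimmed mean was 500.2 on each of the 6 arrays, so values were used as deposited and log2 was taken. Probe sets were named through the platform annotation and the RefSeq gene table (R64), which assigned 5498 to 5449 genes, and the probe set with the highest mean stood for each gene. Genes with a mean log2 signal above 3.06, the 95th percentile of fission yeast probe sets, were tested (5402). Limma 3.58.1 in R 4.3.3 (lmFit, eBayes, genotype only, 2-sided) was used with Benjamini-Hochberg adjustment over all tested genes, a threshold of 0.05 and 95% intervals, and was tested on simulated data. A bound ("at least") replaces a dim array's signal by its background where that is higher. SD within groups is pooled over both. Figures used matplotlib 3.10.9 in Python 3.11.15. The number of arrays limits precision.

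Replicate numbers were checked for pairing. Deviations from group means of same-numbered arrays correlated at 0.768, 0.454 and 0.415. Different-numbered arrays of replicates 2 and 3 correlated as much (wild type 3 with deletion 2 gave 0.535, and wild type 2 with deletion 3 gave 0.471). Pairing beyond the split of replicate 1 from the others was therefore not shown. The main fit and the permutation test used genotype only, and replicate number entered only as a block in an alternative fit. Replicate 1 was told from the others as a batch by the form of its sample code. The 8 genes, the 10 lists and the alternatives were chosen with earlier results of these data known. Genes named are the 8, for each list the 3 with the smallest unadjusted p and any that passed, the 3 most like RPH1 and GIS1, and genes called over all. Lists were described without a test.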

Additional observations from a re-analysis of the deposited data

How the results depend on the processing

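RPH1, whose loss was set by the strain, stayed called in all 17 alternatives, with a log2 difference of -5.84 to -3.28. The smallest came with an offset of 32 added to the signal. None of the other 7 genes passed in any. GIS1 (0.06 to 0.14), ECM5 (0.11 to 0.20), DOT1 (0.04 to 0.17) and SET1 (-0.22 to -0.01) kept their direction throughout. Leaving out 1 array at a time turned the direction of JHD1 (-0.083 to 0.033), JHD2 (-0.077 to 0.39) and SET2 (-0.19 to 0.14). These fits held no batch term, so leaving out an array unbalanced the replicate sets between genotypes. For SET2 the -0.19 came without wild type 1 and the 0.14 without deletion 1. By replicate number SET2 differed by -0.02, -0.01 and -0.04. JHD2 was also -0.095 within replicates 2 and 3 and -0.012 with array weights, where SET2 was 0.0017. The replicate block changed none of the 8 genes' calls. The count of genes called, 2, became 6 with the replicate block (3 higher, 3 lower), 34 with the batch as a term (29 higher, 5 lower), 202 with array weights (175 higher, 27 lower; the weights' estimation stopped before its tolerance was reached), and 1 with quantile normalization, an offset of 32, an intensity trend or a filter at the 99th percentile. Leaving out 1 array at a time gave 1 to 2. The cause of these changes was not tested. Medians of the 10 lists moved by less than a typical SE of their genes in all alternatives but 1, COMPASS within replicates 2 and 3 (-0.10).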
